A study of Mus musculus with 17 samples.

Results

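The 39 DNA replication and G1/S genes are mouse genes chosen by name for their roles in copying DNA and in the entry into S phase, and each is 1 of the 24453 gene models of the deposited RPKM table (reads scaled by exon length and library depth). Matching the symbol of each table row found all 39. They were sorted into 9 role groups: origin licensing (4), the MCM2-7 helicase (6), helicase activation (4), polymerases and primase (5), clamp and clamp loader (5), Okazaki fragment and single-strand DNA (3), nucleotide supply (4), G1/S regulators (4), and chromatin and maintenance methylation (4). PolyA RNA-seq was available for 13 of 17 samples in all, while 4 GRO-seq samples are not used here. The study asked which genes depend on single members of AP-1, a family of dimeric transcription factors. Immortalised bone marrow-derived macrophages (iBMDMs), labelled C57Bl/6EiJ and male, carried retroviral Myc and mutant BRAF and expressed Cas9. Knockout cells received a lentivirus with a pair of guides, which targeted Atf3 in Atf3KO, Jun in JunKO and Jund in JunDKO, and were sorted in bulk for the viral reporter. Scramble Control cells (zsGreen in the titles) are their control, and every group was kept in vehicle and has 2 libraries. No edited line is stated to be 1 clone. Thioglycollate-elicited macrophages (TGEMs) are peritoneal cells of unedited 8-week-old mice and were not immortalised. C57Bl/6EiJ TGEMs gave 1 vehicle library and 1 library after 1 h of KLA (Kdo2 lipid A, which activates TLR4), and Balb/cJ TGEMs gave 1 vehicle library and 2 KLA libraries. The design text calls replicates biological without saying whether they came from separate cultures, so p-values measure only the spread between these libraries.

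A cell prepares for S phase by loading the MCM2-7 helicase on origins with ORC, Cdc6 and Cdt1, and fires those origins when cyclin-dependent kinases lead Cdc45, the GINS complex and Mcm10 to the helicase. Polymerases alpha, delta and epsilon then copy the strands with the sliding clamp PCNA, which the RFC complex loads. Cyclin E and E2F factors drive this gene programme at the G1/S boundary, and it is low in macrophages that have stopped dividing.

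Depth, recovered from the step that 1 read makes in RPKM, was 1553296 to 18444434 reads per library, the lowest and highest being JunDKO replicates 1 and 2. The RPKM of the 39 members summed to 935 and 873 in the Scramble libraries, 1316 and 1343 in Atf3KO, 1241 and 1205 in JunKO, 1181 and 1173 in JunDKO, and 157 to 255 in the 5 TGEM libraries. The 2 Scramble libraries were the lowest of the 8 iBMDM libraries by this measure, and all 3 knockout comparisons share them. Each member had at least 10 reads in every iBMDM library, whereas in TGEMs the lowest library held a total of 1215 reads over the 39. The targeted RNAs do not check the labels, and the study's own check was of protein, by western blotting, which is not analysed here. In Atf3KO the Atf3 RNA stood at 154 and 169 RPKM, higher than the 80.7 and 77.4 of Scramble, Jun at 26.2 and 20.5 in JunKO against 17.6 and 18.5, and Jund at 6.94 and 6.07 in JunDKO against 9.19 and 8.33. Atf3KO, JunKO and JunDKO therefore name the libraries so labelled, in every direction given here. The Atf3KO libraries stood apart, with reads of 10425 and 10631 gene models against 11884 to 12533 in the other iBMDM libraries. Atf3KO replicate 2 is the only iBMDM library with another date in its title. Atf3KO replicates 1 and 2 also differed in the other targeted RNAs. Jund stood there at 22.6 and 83.0 RPKM against 9.19 and 8.33 in Scramble, and Jun at 17.9 and 46.2 against 17.6 and 18.5. All libraries are labelled male, but Xist, the RNA of the inactive X chromosome, had 863 to 8676 reads in each TGEM library and 0 to 3 in each iBMDM library. All 8 macrophage markers had reads in every library, with a summed level of 16835 to 33035 RPKM in iBMDMs and 8015 to 11011 RPKM in TGEMs. Most of each sum was Lyz2, at 14815 to 30398 RPKM in iBMDMs and 5321 to 7145 in TGEMs. Csf1r, Adgre1, Itgam and Fcgr1 were also higher in iBMDMs. Cd68 went the other way (353 to 705 against 1404 to 4050 RPKM), and Spi1 and Mertk overlapped.

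In the Scramble libraries the members spanned a wide range of levels. Pcna, the clamp, was highest with 167 and 173 RPKM, followed by the helicase subunit Mcm6 with 109 and 94.8 RPKM, and neither overlapped any other member. Mcm3 (50.6 and 47.3 RPKM), the ribonucleotide reductase subunit Rrm1 (39.5 and 41.4), the maintenance methyltransferase Dnmt1 (43.2 and 36.6) and the flap nuclease Fen1 (39.7 and 37.8) came next. Rrm1, Dnmt1 and Fen1 overlapped one another. At the low end stood Orc1, the large subunit of the origin recognition complex (1.73 and 2.54 RPKM), Tyms, thymidylate synthase (3.27 and 2.31), Ccne1, cyclin E1 (3.73 and 4.51), and Pole, the catalytic subunit of polymerase epsilon (4.17 and 4.04). The Tyms model is a non-coding RefSeq transcript of 3801 bases, so its RPKM need not be the level of the coding mRNA. A mean of at least 16 RPKM was reached by 13 members in Scramble, 28 in Atf3KO, 29 in JunKO, 23 in JunDKO and 3 in TGEMs. These are bulk samples, in which fewer cells in S phase and less RNA per cell cannot be told apart.

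**Figure D1:**
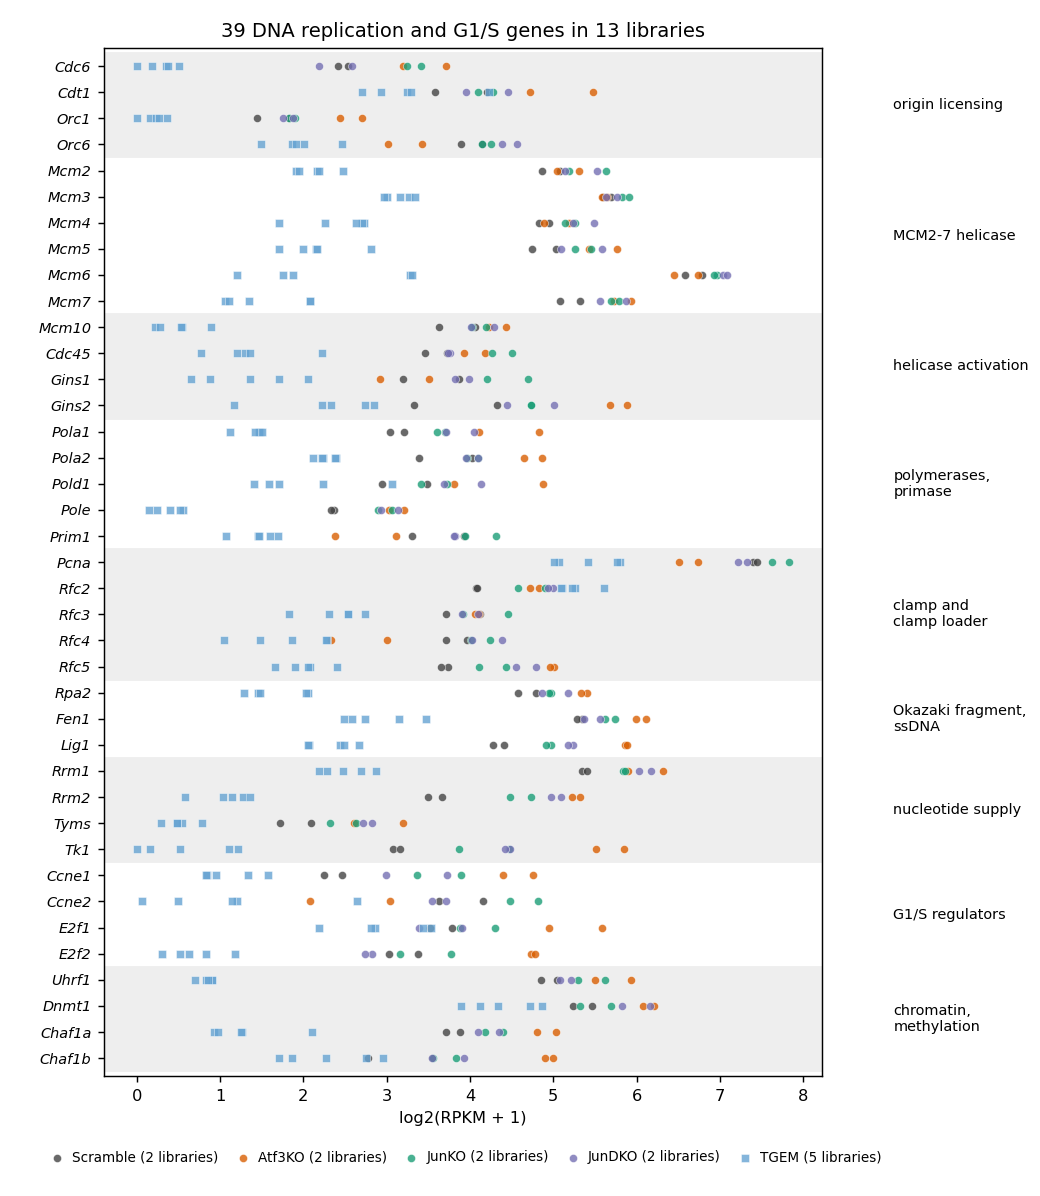
Level of each member in each library, as log2(RPKM + 1) on the horizontal axis, with members in rows by role. Points are libraries (circles for 8 iBMDM, squares for 5 TGEM). Pcna and Mcm6 lead in iBMDMs, and TGEM squares lie left of the iBMDM circles for most members, while for Rfc2 they lie right of the Scramble circles.

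In mm10 coordinates of the deposited gene models, whose values sum over exons, the members on which most results turn are Ccne1 (chr7:38097984-38107490), Ccne2 (chr4:11191709-11204779), E2f1 (chr2:154559400-154569892), E2f2 (chr4:136180782-136196056), Tk1 (chr11:117815519-117826014), Rrm2 (chr12:24708254-24714146), Rrm1 (chr7:102441695-102469771), Mcm5 (chr8:75109509-75128439), Mcm6 (chr1:128331575-128359705), Mcm7 (chr5:138164589-138171862), Gins2 (chr8:120581266-120589075), Orc1 (chr4:108579454-108614831), Pola1 (chrX:93304766-93632155), Pcna (chr2:132249286-132253180), Rfc2 (chr5:134582690-134598328), Rfc4 (chr16:23113948-23127730), Rfc5 (chr5:117379145-117389023), Fen1 (chr19:10199132-10203943), Lig1 (chr7:13278826-13311427) and Uhrf1 (chr17:56304313-56323486).

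Promoter windows were taken from RefSeq (GRCm38.p6, from 250 bases before to 50 after a gene start) for 33 members, and those of Mcm4, Gins1, Gins2, Pole, Rfc2 and Ccne2 are not used here. The E2F words TTTCCCGC, TTTCGCGC, TTTGCCGC and TTTGGCGC, on either strand and with overlaps counted, were found in 12 of these 33 windows (36.4%), against 500 of 17322 gene windows (2.89%) and 358 of the 8065 windows of genes with a mean of at least 1 RPKM in iBMDMs (4.44%). The 12 were Cdc6, Cdt1, Lig1, Mcm3, Mcm5, Mcm6, Mcm7, Orc1, Pola1, Pold1, Rfc3 and Uhrf1. CCAAT was found in 20 of 33 (60.6%) against 38.7% of all windows, and the CHR words TTTGAA and TTCGAA in 6 of 33 (18.2%) against 17.4%. The AP-1 words TGACTCA and TGAGTCA were in 0 of 33 member windows against 4.77% of all windows, and TGACGTCA was in 1 of 33, that of Mcm5, against 2.34%. A match is a description of letters, and a window without one says nothing about the factor. Mcm3, Mcm5, Mcm6, Mcm7 and Rfc3 held at least 2 E2F words, and 4 of these 5 are helicase subunits. Their windows are shown 5′ to 3′ on the gene's strand with the E2F words in capitals, Mcm3 (chr1:20820263-20820562, minus strand), Mcm5 (chr8:75109259-75109558, plus), Mcm6 (chr1:128359656-128359955, minus), Mcm7 (chr5:138171834-138172133, minus) and Rfc3 (chr5:151651159-151651458, minus).
Mcm3: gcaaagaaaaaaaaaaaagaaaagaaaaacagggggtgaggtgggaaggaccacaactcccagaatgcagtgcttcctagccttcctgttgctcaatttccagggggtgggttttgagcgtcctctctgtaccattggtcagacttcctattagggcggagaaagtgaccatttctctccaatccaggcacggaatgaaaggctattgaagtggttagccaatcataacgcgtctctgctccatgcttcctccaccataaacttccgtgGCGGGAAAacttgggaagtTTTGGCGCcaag
Mcm5: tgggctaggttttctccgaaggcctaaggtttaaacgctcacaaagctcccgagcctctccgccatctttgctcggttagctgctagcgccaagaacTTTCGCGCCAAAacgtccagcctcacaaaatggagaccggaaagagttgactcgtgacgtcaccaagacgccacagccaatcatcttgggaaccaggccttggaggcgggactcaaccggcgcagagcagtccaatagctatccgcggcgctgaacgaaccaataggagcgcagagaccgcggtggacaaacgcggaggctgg
Mcm6: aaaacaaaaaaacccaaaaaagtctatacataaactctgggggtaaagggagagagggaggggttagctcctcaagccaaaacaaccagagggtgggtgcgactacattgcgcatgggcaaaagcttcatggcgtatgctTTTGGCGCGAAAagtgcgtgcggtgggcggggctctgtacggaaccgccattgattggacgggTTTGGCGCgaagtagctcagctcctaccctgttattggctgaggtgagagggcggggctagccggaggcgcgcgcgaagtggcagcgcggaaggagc
Mcm7: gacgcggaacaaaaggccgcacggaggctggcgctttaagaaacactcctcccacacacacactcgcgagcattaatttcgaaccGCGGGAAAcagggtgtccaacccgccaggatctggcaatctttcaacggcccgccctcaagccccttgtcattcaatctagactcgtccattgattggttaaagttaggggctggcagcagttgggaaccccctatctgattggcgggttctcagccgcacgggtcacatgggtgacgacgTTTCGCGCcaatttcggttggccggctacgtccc
Rfc3: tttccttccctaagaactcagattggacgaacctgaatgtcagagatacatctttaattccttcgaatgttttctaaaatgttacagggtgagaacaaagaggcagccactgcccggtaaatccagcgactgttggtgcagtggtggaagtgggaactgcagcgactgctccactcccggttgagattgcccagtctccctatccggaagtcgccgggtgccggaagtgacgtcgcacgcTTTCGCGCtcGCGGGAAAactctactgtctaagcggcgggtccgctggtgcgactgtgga
In Mcm5 both words overlapped, with the first starting 153 bases before the gene start, and in Mcm6 the first pair of its 3 words overlapped, starting 110 bases before it. Rrm2 (chr12:24708004-24708303, plus) and Tk1 (chr11:117825965-117826264, minus) are shown because they had the strongest differences in JunDKO. The Rrm2 window held none of the E2F words and has its CCAAT in capitals, 50 bases before the start. The Tk1 window held none of the words searched.
Rrm2: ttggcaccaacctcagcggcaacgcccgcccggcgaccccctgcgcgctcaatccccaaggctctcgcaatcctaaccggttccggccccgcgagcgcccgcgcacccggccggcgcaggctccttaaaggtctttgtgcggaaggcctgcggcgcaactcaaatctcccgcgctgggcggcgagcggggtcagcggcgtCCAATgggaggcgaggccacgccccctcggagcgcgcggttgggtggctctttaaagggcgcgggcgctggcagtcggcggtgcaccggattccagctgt
Tk1: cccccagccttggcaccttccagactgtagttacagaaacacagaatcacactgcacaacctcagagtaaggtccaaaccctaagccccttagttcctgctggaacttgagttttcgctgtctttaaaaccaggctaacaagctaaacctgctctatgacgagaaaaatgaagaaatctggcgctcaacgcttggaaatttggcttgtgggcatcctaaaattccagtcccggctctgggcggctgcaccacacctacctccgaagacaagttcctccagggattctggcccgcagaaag

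Against Scramble, most members were higher in the libraries labelled Atf3KO. Of 39 members 26 passed as higher and 4 as lower (limma-trend on log2(RPKM + 1), adjusted p under 0.05 over all 10691 genes tested, here called passing). Of all genes tested, 20.7% passed as higher and 20.6% as lower, and the median log2 difference was 0.76 over the members and 0.05 over all genes. Both Atf3KO libraries exceeded both Scramble libraries for 28 members, against 37.4% of all genes, and lay below both for 5, against 33.4%. With the study's stricter limits added (2-fold and 16 RPKM in either group), 14 members were higher and 0 lower, where the background was 7.84% and 4.69%.

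Of the G1/S regulators 3 passed as higher and 1 as lower. Ccne1, cyclin E1, measured 26.1 and 20.1 RPKM in Atf3KO and 3.73 and 4.51 in Scramble, a log2 difference of 2.23 ± 0.30 (SE, 2 libraries per group, limma-trend adjusted p = 0.00162). Ccne2, cyclin E2, measured 7.25 and 3.21 RPKM in Atf3KO against 11.4 and 16.9, a log2 difference of -1.33 ± 0.34 (limma-trend adjusted p = 0.0158) that was -0.02 with the GC trend of each library removed (limma-trend adjusted p = 0.96). The ratio of Ccne1 to Ccne2 RPKM was 0.33 and 0.27 in the Scramble libraries and 3.60 and 6.25 in Atf3KO. E2f1, an activating E2F, measured 29.9 and 46.9 RPKM against 12.7 and 10.5 (log2 difference 1.62 ± 0.29, limma-trend adjusted p = 0.00434). E2f2, another activator, measured 25.5 and 26.4 RPKM against 9.42 and 7.18 (1.55 ± 0.25, limma-trend adjusted p = 0.0029). With the GC trend removed both still passed, with smaller differences of 0.98 and 1.03. For all 4 genes the deposited values of the groups did not overlap.

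All 4 nucleotide supply genes passed as higher in Atf3KO. Tk1, the thymidine kinase of the salvage pathway, had the largest difference of any member, with 44.5 and 56.6 RPKM against 7.41 and 7.91 (log2 difference 2.56 ± 0.24, limma-trend adjusted p = 0.000357). Rrm2, the small subunit of ribonucleotide reductase, measured 38.8 and 36.4 RPKM against 11.7 and 10.2 (1.69 ± 0.18, limma-trend adjusted p = 0.000642). Its large subunit Rrm1 differed less, with 78.4 and 58.6 RPKM against 39.5 and 41.4 (0.73 ± 0.19, limma-trend adjusted p = 0.0167). Tyms had a log2 difference of 0.99. In each of the 4 both Atf3KO libraries lay above both Scramble libraries.

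Of the 6 helicase genes 2 passed in Atf3KO. Mcm5 (42.2 and 53.3 RPKM against 31.8 and 25.8, log2 difference 0.71 ± 0.23, limma-trend adjusted p = 0.0395) and Mcm7 (51.9 and 60.1 RPKM against 38.8 and 32.9, 0.63 ± 0.19, limma-trend adjusted p = 0.0297) passed as higher. Mcm2, Mcm3, Mcm4 and Mcm6 did not pass, with log2 differences of -0.09 to 0.21. With the GC trend removed Mcm4 passed and Mcm7 did not. Mcm6 measured 106 and 86.5 RPKM against 109 and 94.8, with a 95% interval of its log2 difference from -0.48 to 0.31. For these 4 genes the Atf3KO and Scramble libraries overlapped. Among the genes of helicase activation only Gins2, a GINS subunit, passed (50.1 and 57.9 RPKM against 19.1 and 9.07, 1.95 ± 0.33, limma-trend adjusted p = 0.00353), while Cdc45, Mcm10 and Gins1 had log2 differences of 0.46, 0.49 and -0.32. Over all GENCODE exons of Gins2, 70.7% of bases are shared with Gse1 on the opposite strand. The counted Gins2 model is shorter, at 1031 bases, and its own share was not measured. Whether the counting used strand is not given in the sources used here.

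In origin licensing Orc1 (4.41 and 5.49 RPKM against 1.73 and 2.54, log2 difference 0.93 ± 0.26, limma-trend adjusted p = 0.0219), Cdc6 (0.98) and Cdt1 (1.21) passed as higher, and Orc6, a small ORC subunit, as lower (-0.80, limma-trend adjusted p = 0.019). With the GC trend removed neither Orc6 (-0.44) nor Cdt1 (0.50) passed. Of the polymerase genes Pola1 (27.5 and 16.3 RPKM against 7.22 and 8.26, 1.35 ± 0.27, limma-trend adjusted p = 0.00622), Pola2, Pold1 and Pole passed as higher, of which Pold1 fell from 1.12 to 0.24 with the GC trend removed and no longer passed (limma-trend adjusted p = 0.306). Prim1, the primase subunit that works in one complex with the products of Pola1 and Pola2, had a log2 difference of -0.87 and missed the threshold (limma-trend adjusted p = 0.0531). Pola1 over Prim1 in RPKM was 0.81 and 0.58 in Scramble and 3.60 and 3.89 in Atf3KO.

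Clamp and clamp loader genes passed in both directions. Pcna was lower, with 106 and 89.8 RPKM in Atf3KO against 167 and 173 (log2 difference -0.80 ± 0.17, limma-trend adjusted p = 0.0078). Rfc4 was lower, with 7.0 and 4.02 RPKM against 12.1 and 14.6 (-1.17 ± 0.27, limma-trend adjusted p = 0.0109), whereas Rfc5 was higher, with 31.3 and 30.1 RPKM against 12.4 and 11.6 (1.29 ± 0.19, limma-trend adjusted p = 0.00223). Both encode small subunits of the same loader, and the ratio of Rfc4 to Rfc5 RPKM was 0.97 and 1.26 in Scramble and 0.22 and 0.13 in Atf3KO. Rfc2 passed as higher (0.70) and Rfc3 did not pass (0.17). The lagging-strand genes Fen1 (62.9 and 68.0 RPKM against 39.7 and 37.8, 0.74 ± 0.17, limma-trend adjusted p = 0.00994), Lig1, the ligase that joins Okazaki fragments (1.53), and Rpa2, of the single-strand binding complex (0.69), all passed as higher. So did the chromatin group: Uhrf1, which brings Dnmt1 to hemimethylated DNA (44.1 and 59.9 RPKM against 32.1 and 28.0, 0.76 ± 0.21, limma-trend adjusted p = 0.023), Dnmt1 (0.79), and the histone chaperone subunits Chaf1a (1.13) and Chaf1b (1.79).

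**Figure D2:**
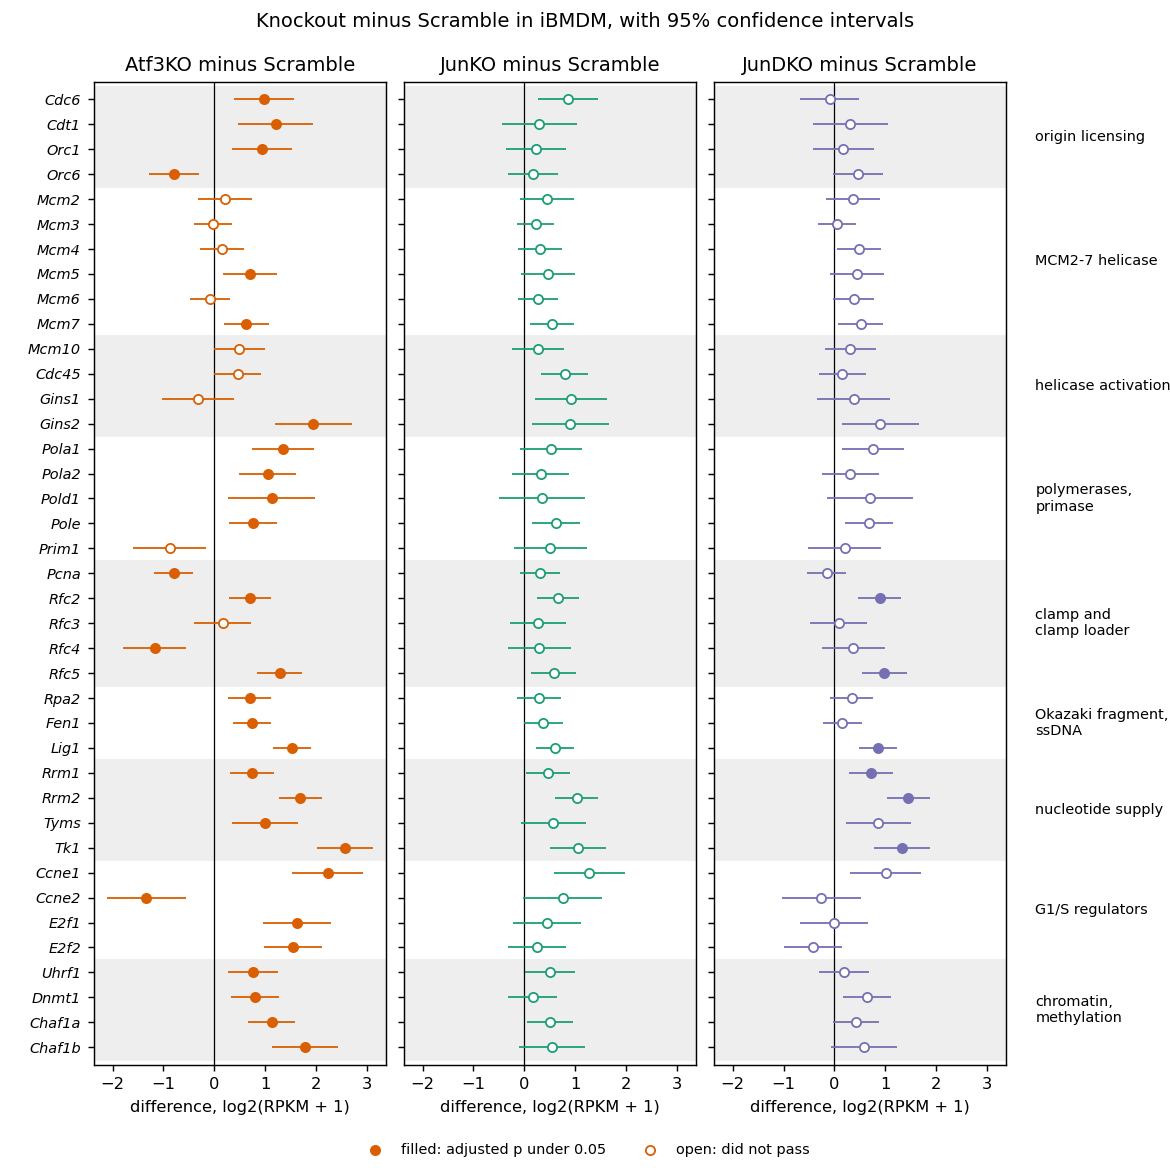
Difference of each knockout from Scramble for the 39 members, in log2(RPKM + 1), with 95% confidence intervals from the limma-trend fit (n = 2 libraries per group). Filled points passed (30 in Atf3KO, 0 in JunKO, 6 in JunDKO). The Atf3KO panel holds points on both sides of 0, while all 39 JunKO points lie above 0.

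GC content moved with the Atf3KO difference. Across the 10645 tested genes with a GC value, the log2 difference and the GC content of the transcript had a Spearman's rho of 0.49, and across the 39 members of 0.56, as a description over genes of the same libraries. The 4 members that passed as lower had GC contents of 35.1% (Ccne2), 44.6% (Rfc4), 45.3% (Pcna) and 45.4% (Orc6), below the members' median of 50.7%. With the GC trend of each library removed, rho over the members was 0.20 and 24 members passed as higher and 2 as lower. Pcna (-0.43, limma-trend adjusted p = 0.014) and Rfc4 (-0.75, limma-trend adjusted p = 0.0199) still passed as lower. Ccne2 and Orc6 (limma-trend adjusted p = 0.0664) did not. Cdt1, Pold1 and Mcm7 no longer passed as higher. Mcm4 then passed as higher (0.51, limma-trend adjusted p = 0.0194), and Mcm2 turned from 0.21 to -0.22 without passing (limma-trend adjusted p = 0.221), while Pola1 and Rrm1, both of low GC content, had larger differences, 2.02 and 1.17. Pola2 (0.67), Uhrf1 (0.50) and Chaf1a (0.72) still passed with smaller differences. Some members share exons with a gene on the opposite strand. These shares were taken over all GENCODE exons of the member, which are not always those of its counted model. Rfc4 shares 13.4% of its exonic bases with Eif4a2, at 36.0 and 21.2 RPKM in Atf3KO against 78.3 and 72.2 in Scramble, and Ccne2 shares 10.5% with Ints8, at 1.80 and 2.27 RPKM against 11.0 and 12.9. Chaf1a shares 33.6% with Ubxn6, at 28.0 and 52.0 RPKM in Atf3KO against 21.8 and 15.9, and Fen1 shares 78.8% with Gm10143. The counted Chaf1a model, at 3292 bases, is shorter than its GENCODE exons. The part of these genes in the members' values was not tested.

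**Figure D3:**
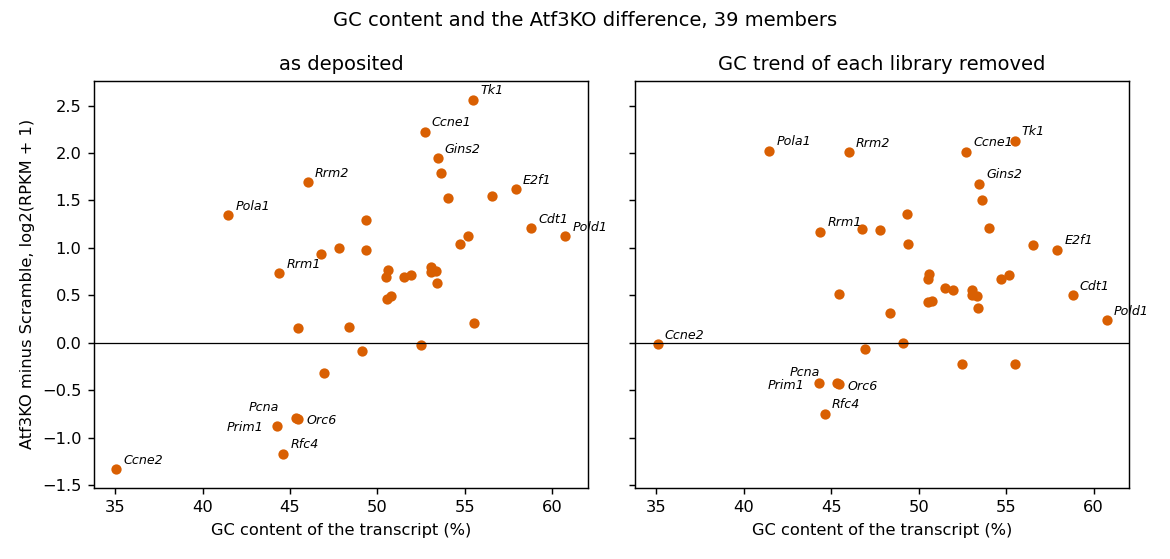
Atf3KO minus Scramble in log2(RPKM + 1), against the GC content of each member's transcript, before and after removal of each library's GC trend. Each point is 1 of 39 members. Ccne2 moves from -1.33 to -0.02, while Tk1, Ccne1, Rrm2 and Pola1 lie between 2.01 and 2.13 after removal.

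Leaving out 1 library changed the count of passing members in Atf3KO. It was 28 without Atf3KO replicate 1, 18 without Atf3KO replicate 2 (which leaves only libraries of 1 date), 21 without Scramble replicate 1 and 12 without Scramble replicate 2. Rrm2, Tk1, Gins2, Pola1, Rfc5, Lig1, Ccne1, E2f1, E2f2, Chaf1a and Chaf1b passed as higher in all 14 alternatives of scaling, filter, GC, block and library choice. None of the 4 lower members did.

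In JunKO 0 of 39 members passed by limma-trend, 15 had an unadjusted p under 0.05 (842 of all 10691 genes), and limma-voom on the recovered reads also gave 0. Of all 10691 genes tested 0.159% passed as higher and 0.122% as lower. With the stricter limits 0 passed as well, where 0.103% of all genes were higher and 0.0935% lower. The log2 difference was above 0 for all 39 members, from 0.16 (Dnmt1) to 1.28 (Ccne1), with a median of 0.47 against 0.01 over all genes, of which 50.8% lay above 0. All 39 stayed above 0 with equal library medians, quantile normalization and the GC trend removed. Both JunKO libraries lay above both Scramble libraries for 31 members, where 19.1% of all genes did. The members are not independent of one another and share the same 2 control libraries, and their common direction was not tested.

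Rrm2 came nearest to the threshold in JunKO, with 21.4 and 25.6 RPKM against 11.7 and 10.2 (log2 difference 1.03 ± 0.18, limma-trend adjusted p = 0.0992). Tk1 measured 21.2 and 13.6 RPKM against 7.41 and 7.91 (1.06 ± 0.24, limma-trend adjusted p = 0.191), and Ccne1 measured 13.9 and 9.31 RPKM against 3.73 and 4.51 (1.28 ± 0.30, limma-trend adjusted p = 0.219). In these 3 genes the groups did not overlap. Ccne2, lower in Atf3KO, stood at 21.2 and 27.1 RPKM in JunKO against 11.4 and 16.9, and Pcna at 196 and 226 against 167 and 173. With the GC trend removed, Rrm2 (1.02, limma-trend adjusted p = 0.0257) and Tk1 (1.00, limma-trend adjusted p = 0.0452) passed. The 95% interval reached a 2-fold higher level for 18 of the 39.

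In JunDKO 3 of 4 nucleotide supply genes, 2 of 5 clamp and clamp loader genes and 1 of 3 Okazaki fragment and single-strand DNA genes passed as higher, and role groups were not tested against each other. With equal library medians only Rrm2 and Tk1 did. Over all members 6 of 39 passed as higher and 0 as lower, where 6.93% of all genes passed as higher and 4.82% as lower. Rrm2 measured 33.0 and 30.4 RPKM against 11.7 and 10.2 (log2 difference 1.45 ± 0.18, limma-trend adjusted p = 0.00192). Tk1 measured 21.3 and 20.4 RPKM against 7.41 and 7.91 (1.33 ± 0.24, limma-trend adjusted p = 0.00974). These were the only members past the stricter limits, which 2.69% of all genes passed as higher. Rrm1 measured 64.0 and 71.3 RPKM against 39.5 and 41.4 (0.73 ± 0.19, limma-trend adjusted p = 0.0431). A pair of clamp loader genes and the ligase completed the list, Rfc5 (22.5 and 26.8 RPKM against 12.4 and 11.6, 0.98 ± 0.19, limma-trend adjusted p = 0.0146), Rfc2 (0.89, limma-trend adjusted p = 0.0174) and Lig1 (0.86, limma-trend adjusted p = 0.012). Ccne1, at 6.96 and 12.2 RPKM against 3.73 and 4.51, fell just outside (1.01, limma-trend adjusted p = 0.0719).

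The regulators E2f1 and E2f2 did not share this direction in JunDKO. E2f2 measured 6.10 and 5.68 RPKM against 9.42 and 7.18 in Scramble, a log2 difference of -0.42 ± 0.25 that did not pass (limma-trend adjusted p = 0.308), although both JunDKO libraries lay below both Scramble libraries. With the GC trend removed it passed as lower (-0.68, limma-trend adjusted p = 0.0453). E2f1 measured 9.43 and 14.0 RPKM against 12.7 and 10.5, and its groups overlapped. None of the 6 helicase genes passed, with log2 differences of 0.05 to 0.51, and neither did any origin licensing, polymerase or chromatin gene. Pole (0.68, limma-trend adjusted p = 0.0722) and Dnmt1 (0.64, limma-trend adjusted p = 0.0858) lay near the threshold. Of the 33 members that did not pass, the 95% interval reached a 2-fold higher level for 10 and a 2-fold lower level for 1. An unadjusted p under 0.05 was found for 14 members and for 2939 of all 10691 genes. Mcm6 stood at 130 and 134 RPKM against 109 and 94.8 and Pcna at 148 and 159 against 167 and 173.

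Both JunDKO libraries lay above both Scramble libraries for 26 of 39 members, where 45.3% of all genes did, and below both for 2, where 16.4% did. Members whose values in JunKO and JunDKO are not yet given had these levels. Gins2 measured 25.6 and 25.5 RPKM in JunKO and 31.2 and 20.8 in JunDKO, above both Scramble libraries in each. E2f1 measured 18.7 and 13.7 RPKM in JunKO, also above both, and E2f2 12.6 and 7.92, which overlapped Scramble. Pola1 stood at 11.2 and 12.0 RPKM in JunKO and 12.1 and 15.5 in JunDKO, and Uhrf1 at 48.2 and 38.2 and at 35.9 and 32.8. These 4 groups lay above the Scramble libraries. Fen1 measured 52.5 and 48.3 RPKM in JunKO and 40.4 and 46.1 in JunDKO, and Mcm5 measured 42.7 and 37.3 and then 47.0 and 33.1. Mcm7 measured 54.2 and 50.5 RPKM in JunKO and 46.0 and 57.5 in JunDKO, and Mcm6 124 and 121 RPKM in JunKO. All of these lay above Scramble too. Orc1 measured 2.55 and 2.73 RPKM in JunKO and 2.37 and 2.66 in JunDKO, Rfc4 15.1 and 17.9 and then 19.8 and 15.3, and Rfc5 20.5 and 16.3 in JunKO. Rrm1 measured 56.1 and 56.9 RPKM in JunKO, and Ccne2 10.7 and 12.1 in JunDKO. Of these, Orc1 and Ccne2 overlapped Scramble in JunDKO.

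Other values of these libraries moved with the JunDKO difference. The median of all genes was 0.23 higher in log2(RPKM + 1) in JunDKO than in Scramble, against 0.37 for the members, and 68.7% of all genes and 34 of 39 members lay above 0. With library medians made equal, the medians were -0.03 and 0.09 and 27 members lay above 0. Of 4 neutrophil markers only S100a8 had reads, at 21.8 to 41.1 RPKM in the other iBMDM groups and at 0 in both JunDKO libraries. Its part in these differences was not tested. The count of passing members was 1 without JunDKO replicate 1, 1 without JunDKO replicate 2, 2 without Scramble replicate 1 and 1 without Scramble replicate 2. Rrm2 passed in all 15 alternatives.

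**Figure D4:**
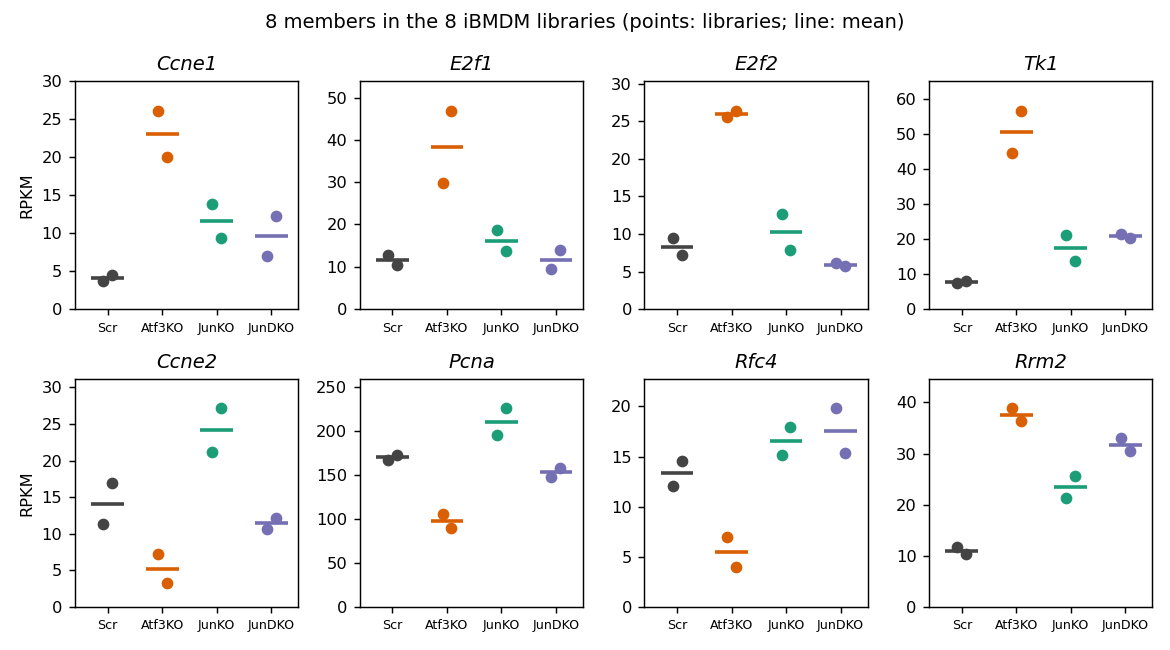
RPKM of 8 members in the 8 iBMDM libraries, with a point for each library and a line at the mean of each group (Scr is Scramble, n = 2). Ccne1, E2f1, E2f2, Tk1 and Rrm2 are highest in Atf3KO, Ccne2, Pcna and Rfc4 are lowest there, and Rrm2 in JunDKO (33.0 and 30.4) lies above all JunKO and Scramble points.

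The knockouts were also set against each other directly, which does not use the Scramble libraries except for the shared spread. Between JunDKO and Atf3KO 17 members passed, 5 higher in JunDKO and 12 lower, where 25.9% and 14.9% of all genes did, and the stricter limits left 2 and 6, where 6.73% and 5.50% did. With equal library medians the split was 2 higher and 14 lower, and with the GC trend removed 2 and 17. E2f2 had the largest difference (-1.97 ± 0.25, limma-trend adjusted p = 0.00087), followed by E2f1 (-1.62 ± 0.29, limma-trend adjusted p = 0.00363). Rfc4 (1.54 ± 0.27, limma-trend adjusted p = 0.00334), Orc6 (1.26), Prim1 (1.07), Ccne2 (1.07) and Pcna (0.65) were higher in JunDKO. Tk1, E2f1, E2f2, Orc6 and Rfc4 passed in all 12 alternatives. Ccne2 turned to -0.51 with the GC trend removed (limma-trend adjusted p = 0.0829), and Pcna was then at 0.14.

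Between Atf3KO and JunKO 19 members passed, 13 higher in Atf3KO and 6 lower, where 17.0% and 18.5% of all genes did, and the stricter limits left 5 and 5, where 6.03% and 3.68% did. The split was 8 and 6 with equal library medians, 5 and 6 with quantile normalization and 10 and 8 with the GC trend removed. Ccne2 differed most (-2.08 ± 0.34, limma-trend adjusted p = 0.00385), with 7.25 and 3.21 RPKM against 21.2 and 27.1. Tk1 (1.51 ± 0.24, limma-trend adjusted p = 0.00354) and Rfc4 (-1.46 ± 0.27, limma-trend adjusted p = 0.00602) followed. The other lower members were Prim1 (-1.38), Gins1 (-1.24), Pcna (-1.10) and Orc6 (-0.97). Pcna, Tk1, Lig1 and Ccne2 passed in all 12 alternatives. Between JunDKO and JunKO 0 members passed by limma-trend, 7 had an unadjusted p under 0.05 (2661 of all 10691 genes), and limma-voom gave 1, while equal library medians gave 3, quantile normalization 3 and GC removal 6, all lower in JunDKO. Of all genes 4.33% passed as higher in JunDKO and 3.81% as lower (1.60% and 1.90% with the stricter limits, 0 members). The lowest adjusted p there was that of Cdc6 (log2 difference -0.95, limma-trend adjusted p = 0.0606), with 4.99 and 3.54 RPKM in JunDKO against 8.44 and 9.69. For the members in that comparison the 95% interval reached a 2-fold lower level in 7 and a 2-fold higher level in 1. The counts without 1 library were 6 to 16 between JunDKO and Atf3KO and 4 to 14 between Atf3KO and JunKO, lowest without JunDKO replicate 2 and without JunKO replicate 2.

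Scramble iBMDMs were set against the 5 TGEM libraries, with the 4 TGEM groups weighted equally. Of the 39 members 36 were higher in Scramble and 1 lower, where 41.7% and 18.4% of all 10929 genes tested were, and the median log2 difference was 2.11 over the members and 0.40 over all genes. With equal library medians the counts were 35 and 1, and between 35 and 38 members passed when 1 library was left out. The stricter limits left 12 higher and 1 lower, where 14.2% and 7.12% of all genes passed them. Cell kind, immortalisation, culture, operator, date and the presence of Xist reads differ together between these sets and cannot be told apart. The TGEM side also holds Balb/cJ and KLA libraries. Fibroblast or mesothelial markers summed to 23.7 to 46.7 RPKM in TGEMs, with all 4 of the list detected in every library, against at most 0.22 RPKM in iBMDMs, where Col1a1 and Msln were at 0. The B-cell markers Cd79a, Cd79b and Ms4a1 stood at 1.29 to 5.87, 4.19 to 9.199 and 1.25 to 5.27 RPKM in TGEMs, against at most 0.49, 0 and 0.08 RPKM in iBMDMs. T-cell and erythroid markers summed to at most 0.52 and 0.34 RPKM in any library. The part of these cell types in the result was not tested.

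Helicase genes had the largest and the third largest of these differences. Mcm6 measured 109 and 94.8 RPKM in Scramble, 8.72 and 8.87 in C57Bl/6EiJ TGEMs and 1.30 to 2.68 in Balb/cJ TGEMs (log2 difference 4.28 ± 0.15, limma-trend adjusted p = 3.55e-07). Mcm7 measured 38.8 and 32.9 RPKM against 1.08 to 3.24, with a median of 1.54 (3.59 ± 0.17, limma-trend adjusted p = 1.34e-06). All 6 passed with log2 differences of at least 2.45, and no TGEM library reached any Scramble library. Mcm6 stood at 3.02 and 2.89 times the mean RPKM of the other 5 helicase genes in Scramble, at 1.71 and 1.69 times in C57Bl/6EiJ TGEMs, and at 0.33 to 0.71 of it in Balb/cJ TGEMs. Uhrf1 measured 32.1 and 28.0 RPKM against 0.63 to 0.88, with a median of 0.80 (4.11 ± 0.18, limma-trend adjusted p = 1.03e-06).

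**Figure D5:**
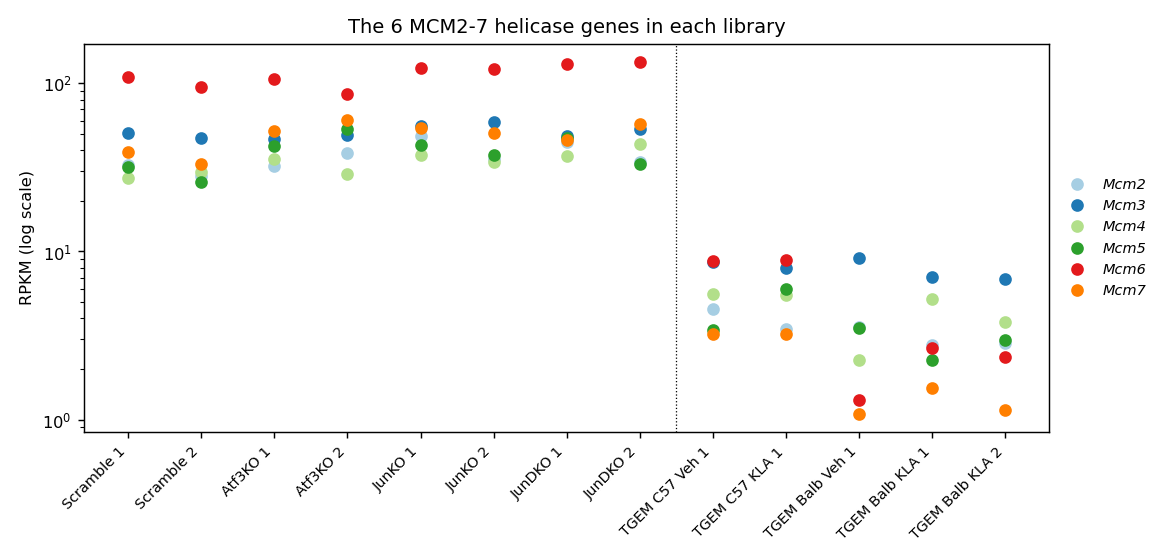
RPKM of the 6 MCM2-7 helicase genes (log scale) in each of the 13 libraries, iBMDMs left of the dotted line and TGEMs right of it. Mcm6 is the highest of the 6 in every iBMDM library (86.5 to 134 RPKM) and in both C57Bl/6EiJ TGEM libraries, and lies below Mcm3 in the 3 Balb/cJ libraries.

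A mean under 1 RPKM in TGEMs was found for 8 members. Besides Uhrf1 they were Mcm10 (0.17 to 0.86 RPKM), Tyms (0.225 to 0.72), Tk1 (0 to 1.32), Cdc6 (0 to 0.42), Orc1 (0 to 0.285), Pole (0.11 to 0.47) and E2f2 (0.24 to 1.26). Tk1 and Cdc6 had 0 reads in the Balb/cJ vehicle library and Orc1 in the C57Bl/6EiJ KLA library, which by 3 reads allows up to 0.96, 0.28 and 0.31 RPKM, for counting error only. E2f1 and Cdt1 did not pass. E2f1 measured 3.56 to 10.6 RPKM in TGEMs against 12.7 and 10.5 in Scramble (0.57, limma-trend adjusted p = 0.1), and Cdt1 5.51 to 17.8 against 17.4 and 11.0 (0.54, limma-trend adjusted p = 0.138). The ratio of E2f2 to E2f1 RPKM was 0.74 and 0.69 in Scramble and 0.04 to 0.15 in TGEMs.

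Among the other members Pcna had the highest mean RPKM in TGEMs, at 31.2 to 54.8 RPKM with a median of 41.6, against 167 and 173 in Scramble, a log2 difference of 2.00, and the log2 difference of each further gene follows it in parentheses. Rrm1 measured 3.54 to 6.31 RPKM in TGEMs (2.87), and Rrm2 0.491 to 1.57 (2.43). Fen1 measured 4.61 to 10.1 RPKM (2.34), Mcm5 2.27 to 6.02 (2.64) and Pola1 1.17 to 1.83 (1.74), and for none of these did a TGEM library reach a Scramble library. Ccne1 measured 0.776 to 1.98 RPKM (1.19), and Ccne2, the most uneven of these genes, 0.05 to 5.24 (2.66). Gins2 measured 1.24 to 6.21 RPKM (1.57), Rfc4 1.06 to 3.86 and Rfc5 2.15 to 4.29. The smallest differences past the test were those of Chaf1b (0.85) and Dnmt1 (0.89), and large ones besides those above were those of Mcm10 (3.29) and Rpa2 (3.04).

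Rfc2 was the only member lower in Scramble, with 15.8 and 15.9 RPKM against 33.0 to 47.7 in TGEMs (log2 difference -1.21 ± 0.15, limma-trend adjusted p = 0.000176). It passed as lower in all 17 alternatives, and the groups did not overlap. Rfc3, Rfc4 and Rfc5, of the same loader, were higher in Scramble by 1.53, 2.02 and 1.67. Over all its GENCODE exons, Rfc2 shares 19.1% of bases with Lat2 on the opposite strand, a gene of the LAT adaptor family. The counted Rfc2 model is shorter, at 1505 bases, and its own share was not measured. Lat2 measured 166 to 290 RPKM in TGEMs and 75.4 and 72.6 in Scramble. The part of Lat2 reads in the Rfc2 values was not tested.

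KLA for 1 h changed no member detectably in TGEMs. Of the 31 members with a mean of at least 1 RPKM, 0 passed by limma-trend, 4 had an unadjusted p under 0.05 (1553 of all 10357 genes) and limma-voom gave 0, while 1.29% of the 10357 genes tested passed as higher and 0.232% as lower (1.00% and 0.126% with the stricter limits, 0 members). The 4 were Gins1 (-0.99), Ccne2 (-1.47), Cdc45 (-0.77) and Dnmt1 (-0.68), with limma-trend adjusted p of 0.235 to 0.309. The median log2 difference was -0.25 over the members and -0.15 over all genes. The 95% interval reached a 2-fold lower level for 13 of the 31, with 2 residual degrees of freedom. For the interaction of KLA and strain, fitted with 1 residual degree of freedom, 0 of 31 members passed by limma-trend, 1 had an unadjusted p under 0.05 (835 of all 10357 genes), and limma-voom gave 0. Of all 10357 genes 0 passed there too, so the members' count is that of the background.

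Between strains 1 of 31 members passed, Mcm6, which was lower in Balb/cJ, where 1.45% of all genes passed as lower and 0.859% as higher. The stricter limits, which 0.772% and 0.386% passed, left 0 members. Mcm6 measured 8.72 and 8.87 RPKM in C57Bl/6EiJ (293 and 85 reads) and 1.30, 2.68 and 2.37 RPKM in Balb/cJ (9, 136 and 46 reads), and the groups did not overlap (log2 difference -1.74 ± 0.26, limma-trend adjusted p = 0.0234). The other 5 helicase genes did not pass, with Mcm7 nearest (-0.93, limma-trend adjusted p = 0.135). The Mcm6 call was lost without any 1 of 4 libraries (both C57Bl/6EiJ libraries, the Balb/cJ vehicle library and Balb/cJ KLA replicate 1), while its log2 difference stayed at -0.98 or below over all 12 alternatives. Balb/cJ reads were aligned to a genome of that strain and dates differ with strain, so that strain, genome and date cannot be told apart.

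The members were set beside other gene lists of the cell cycle, fitted in the same model. Of all genes 20.7% passed as higher and 20.6% as lower in Atf3KO, and 6.93% and 4.82% in JunDKO. Of 34 other replication genes 8 passed as higher and 6 as lower in Atf3KO, shares near that background, with a median log2 difference of 0.17, and 3 and 0 in JunDKO, with a median of 0.41. Rpa3, the smallest subunit of the complex that holds Rpa2, was at -2.81 in Atf3KO and Orc4 at -1.99, whereas Ticrr, an activator of origin firing, was at 1.20 in JunDKO and Asf1b, a histone chaperone, at 1.04. Of 14 E2F and RB network genes 6 were higher and 2 lower in Atf3KO, with Rb1 at -1.38 and the repressor E2f7 at 1.33, and 3 were higher in JunDKO, with Ccna2, cyclin A2, at 1.35 and the repressor E2f8 at 1.16. Of 20 mitosis genes 14 were higher in Atf3KO and 19 in JunDKO, with a median log2 difference of 1.05 and 1.78, against 0.76 and 0.37 for the members. Ccnb2, cyclin B2, was at 2.95 and Cenpa, the centromeric histone, at 2.67 in JunDKO, and Ube2c and Cdc20, of the anaphase-promoting pathway, at 3.24 and 2.27 in Atf3KO. In JunKO 0 of the genes of these 3 lists passed by limma-trend, 1, 2 and 9 of them had an unadjusted p under 0.05, and all 20 mitosis genes had differences above 0.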

How the data were processed

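PolyA RNA-seq values were the RPKM deposited by the authors, who per the labels and file header aligned reads with STAR to mm10 (for Balb/cJ reads, to a Balb/cJ genome derived from it) and counted exons with HOMER analyzeRepeats, genes condensed. Tool versions and a strand option are not given in the sources used here. Whole reads were recovered from the RPKM steps (100% of values up to 50 reads were within 0.05 of a whole number or within rounding). Genes averaging 1 RPKM or more across the libraries of a fit were tested by limma-trend on log2(RPKM + 1), a scale that understates changes of low genes, with 1 coefficient per iBMDM group (4 residual degrees of freedom), 13 libraries for iBMDM against TGEM (5), and treatment plus strain in TGEMs (2). Two-sided p-values were Benjamini-Hochberg adjusted over all tested genes. GC content came from GENCODE transcripts for 24219 models (99.0%) and was removed as a natural spline with 5 degrees of freedom. Transcripts were matched by RefSeq identifier, else the longest of the symbol was taken, which can differ from the counted model. Alternatives were other pseudocounts (0.25 and 5), no filter on low values, equal library medians, quantile normalization, limma-voom on recovered reads, GC removal, a replicate block, fits of both groups alone, and each library left out. Leaving out 1 library leaves its group a single one, whose spread is taken from the other groups.

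The members and lists were chosen with earlier results of these data known. All members are accounted for. Values by library are given for the first member of each role group that passed, the 3 largest differences in each comparison, members that passed in opposite directions, and members under 1 RPKM; from the other lists the 2 largest in JunDKO and the 2 largest in Atf3KO are named. Genes that share exons with a member, Mcm2, Mcm3, Mcm4, Prim1, Cdc45 and further members given by value were named after their values were seen. In a test on simulated data, 200 genes were given a 4-fold change, of which 197 (Atf3KO), 195 (JunKO), 196 (JunDKO), 198 (Scramble against TGEM), 200 (KLA) and 199 (strain) passed, with 13, 38, 14, 24, 41 and 43 unchanged genes passing. The deposited table holds no column of other samples. The value of 1 marker gene is not reported here. Software was R 4.3.3, limma 3.58.1, Python, numpy, pandas, scipy and matplotlib.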

Additional observations from a re-analysis of the deposited data

How the results depend on the processing

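The count of passing members (30 in Atf3KO, 0 in JunKO, 6 in JunDKO, 17 for JunDKO against Atf3KO, 19 for Atf3KO against JunKO, 0 for JunDKO against JunKO, 37 for Scramble against TGEM, 0 for KLA, 1 for strain) took the following values under the alternatives, and the cause of a change was not tested except where fewer libraries or a stricter limit make it. With 2-fold and 16 RPKM the counts were 14, 0, 2, 8, 10, 0, 13, 0 and 0. Equal library medians gave 2 in JunDKO and 3 for JunDKO against JunKO, and quantile normalization 11 for Atf3KO against JunKO and 3 for JunDKO against JunKO. Limma-voom gave 1 for JunDKO against JunKO and 2 for strain. Removing the GC trend gave 2 in JunKO and 6 for JunDKO against JunKO, all 6 lower, and turned Ccne2 to -0.51 in JunDKO against Atf3KO. No filter on low values gave 0 for strain. Fitting only the libraries of both groups gave 19 in Atf3KO. With 1 library left out the counts were 12 to 28 in Atf3KO, 1 to 2 in JunDKO, 6 to 16 for JunDKO against Atf3KO, 4 to 14 for Atf3KO against JunKO, 35 to 38 for Scramble against TGEM and 0 to 1 for strain. The replicate block gave 29 in Atf3KO, 0 in JunKO and 5 in JunDKO. Deviations of same-numbered libraries correlated at 0.18 to 0.22 among Scramble, JunKO and JunDKO, and at -0.21 to -0.12 with Atf3KO, so the numbers did not pair all 4 groups, and the labels name no shared culture. Combined with GC removal, an alternative chosen after the data were seen, the replicate block gave 26, 1 and 9. In the Balb/cJ vehicle library 18 of 39 members had under 10 reads, which limits the precision of their values.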
